A study of Mus musculus with 5 samples.

Results

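The serpins are a family of proteins named for serine protease inhibition, and their expression was followed in whole hearts of lupus-prone and healthy mice. Genes were included when the annotated symbol of a probe set began with Serpin, and a gene with several probe sets was represented by the brightest of them on average. This gave 40 serpin genes among 18193 genes with a symbol of their own on the array. Total RNA of whole hearts was hybridised to Affymetrix Mouse Genome 430 2.0 arrays. The NZB_W group comprised 3 female mice with lupus nephritis and moderate kidney injury, 12 to 15 weeks old, and NZB_W is the F1 cross of the NZB and NZW strains. The control group comprised 2 healthy NZW females matched for age. No animal was treated, and every heart was taken after bleeding and saline perfusion. NZW is 1 parent strain of the cross, so strain and disease cannot be told apart in any difference below.

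A serpin presents an exposed reactive loop as bait, and the protease that cuts the loop is trapped in a covalent complex. Clades, given by the letter after Serpin, group members by descent: clade A holds secreted inhibitors and hormone carriers, clade B intracellular inhibitors, and clades C, D, F and G plasma inhibitors of clotting, fibrinolysis and complement. Clade H is a collagen chaperone, and clade I includes an inhibitor of tissue plasminogen activator. Some members, among them the chaperone and the hormone carriers, inhibit no protease. In the heart these proteins meet proteases of plasma, of infiltrating leukocytes and of the extracellular matrix.

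Of the 40 genes, 12 lay above the array median on all 5 arrays and 27 on no array, and Serpina1b exceeded it on 1 array. Over all 18193 genes, 11365 lay above it on all 5 arrays, a larger share than among the serpins. The array median, between 4.62 and 4.68 on the log2 scale, served as the boundary for brightness in place of a detection call. The 12 bright genes were Serpina3n and Serpina11 of clade A, Serpinb1a, Serpinb6a, Serpinb6b, Serpinb6e and Serpinb9 of clade B, Serpinf1 and Serpinf2, Serping1, Serpinh1 and Serpini1. Thus 2 of 14 clade A genes and 5 of 18 clade B genes were bright. Neither Serpinc1 nor Serpind1, the only members of clades C and D measured, was bright, and clade E was not analysed here. All 12 bright genes were above the boundary in both groups, so no member entered the test through 1 group alone. In bulk tissue, fewer cells of a type and less RNA per cell cannot be told apart.

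The arrays differed in measures of quality and in levels of cell type markers. All 6 cardiomyocyte markers checked were above the median on every array. NZB_W array 3 correlated least with the others (Pearson's r between 0.972 and 0.982 across tested genes, against 0.984 to 0.993 among the rest). Beta-actin control probes read lower at the 5' than at the 3' end, by -1.31 (NZB_W array 3) and -1.19 (NZW array 2) compared with -0.89 to -0.88 for the other arrays. Macrophage markers, 9 of 9 of them higher on average in NZB_W, had log2 summed levels of 11.72 to 12.55 in NZB_W and 11.15 to 11.60 in NZW, with the top value on NZB_W array 3. None of these 9 markers was below the median on every array, but Itgam exceeded it on the 3 NZB_W arrays only.

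**Figure D1:**
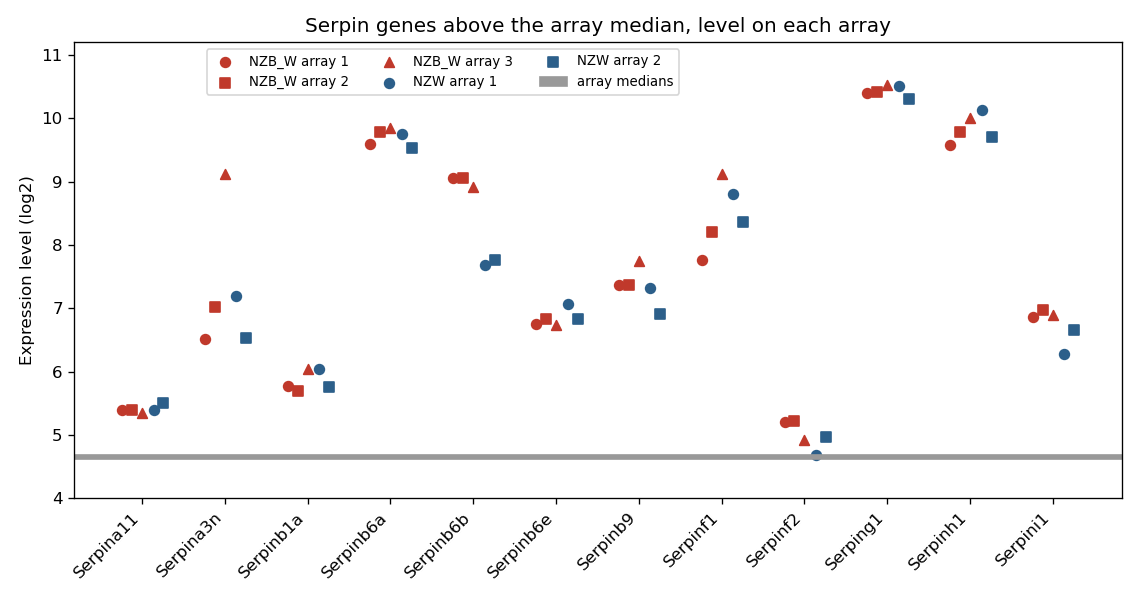
Expression level (log2, vertical axis) of the 12 serpin genes above the array median, with 1 point per array, red for the 3 NZB_W and blue for the 2 NZW arrays, and the grey line at the array medians. Serpinb6b separates the groups, at 8.91 to 9.06 against 7.69 to 7.76, and Serpina3n has 1 NZB_W array at 9.12. Levels of different genes come from different probes and are not comparable in height.

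No serpin passed the test across all genes. The comparison of NZB_W with NZW was fitted with limma over 11902 genes and adjusted by Benjamini-Hochberg, and 0 of 12 serpins had an adjusted p under 0.05, where 0.0084% of all genes tested did. At an unadjusted p under 0.05 the count was 2 of 12, Serpinb6b and Serpini1, where 5.55% of all genes tested did so. Of the 12, 7 were higher on average and 5 lower, with a median log2 difference of 0.071. Over all genes tested, 45.2% were higher and the median was -0.014. The groups did not overlap in 3 serpins, Serpinb6b, Serpinb9 and Serpini1, all higher in NZB_W, beside 17.4% of all genes that separated in either direction and 7.6% in this one. Serpinb6b was known to differ before these counts, so counts that include it, here and below, are not independent of its choice. Serpinb9 separated by only 0.046. In 7 of the 12 the difference was smaller than 0.25 in size.

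Serpinb6b, an intracellular clade B serpin, had the clearest difference of the family. It was singled out because this difference was already known, so its values describe these 5 hearts. Its probe set (1422804_at) read 9.05, 9.06 and 8.91 on NZB_W arrays 1 to 3, and 7.69 and 7.76 on NZW arrays 1 and 2. The groups lay 1.15 apart at their nearest values, while each group spanned far less. The means were 9.01 ± 0.0841 (SD, n = 3) and 7.72 ± 0.0498 (SD, n = 2), a log2 difference of 1.29 (SE 0.077, 95% interval 1.08 to 1.49) or 2.44-fold. Its limma adjusted p of 0.0986 missed the threshold, although it ranked 2 by p among all 11902 genes. The difference did not rest on 1 heart, since it ran from 1.25 to 1.33 with any single array left out. The adjusted p was under 0.05 in 2 of 15 alternative settings, 0.0451 when a gene's probe sets were averaged and 0.0263 with array weights. Serpinb6b has 1 probe set, so averaging left its own values unchanged and altered only the other genes, with 10729 tested. In the other settings that kept both NZW arrays the adjusted p ran up to 0.611.

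The largest difference among the tested neighbours of Serpinb6b on the chromosome was 0.37. On mouse chromosome 13 its gene lies in a cluster of 16 clade B genes, by the gene order of RefSeq for GRCm38.p6. Of these, 11 had a probe set of their own, and 5 were bright. Serpinb9, the next gene on 1 side, inhibits granzyme B, the protease that cytotoxic lymphocytes deliver to target cells. It read 7.37, 7.37 and 7.74 in the NZB_W hearts, against 7.32 and 6.91 in the NZW hearts, so the groups were separated by only 0.046. Its difference was 0.37 (SE 0.18, adjusted p = 0.859), and its dimmer probe set (1439790_at) overlapped between groups and differed by 0.24 (SE 0.21). Serpinb9 was highest on NZB_W array 3, where the macrophage markers were also highest, and it differed by 0.25 without that array. Leaving out NZW array 1 gave 0.58, and leaving out NZW array 2 gave 0.17. The part of macrophage content in this value was not tested.

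Serpinb6a, the mouse counterpart of human SERPINB6 and an inhibitor of cathepsin G, lies at the far end of the cluster. It read 9.60, 9.78 and 9.85 in the NZB_W hearts, against 9.75 and 9.53 in the NZW hearts, with the groups interleaved. Its difference was 0.11 (SE 0.11), with a 95% interval from -0.19 to 0.41. Serpinb6e read 6.75, 6.83 and 6.73 against 7.06 and 6.83, a difference of -0.17 (SE 0.092) with NZW array 2 at the level of NZB_W array 2. Without NZW array 1 it was -0.061, and without NZW array 2 it was -0.29. Its only probe set (1441918_x_at) is of a type that can bind related transcripts. Serpinb1a, an inhibitor of neutrophil elastase and cathepsin G, read 5.77, 5.70 and 6.04 against 6.05 and 5.76, a difference of -0.065 (SE 0.15). Each of these 3 genes had a limma adjusted p of at least 0.859.

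The other 6 measured genes of the cluster, Serpinb9b, Serpinb1b, Serpinb9c, Serpinb9d, Serpinb9g and Serpinb6c, were dim on all arrays. Their differences ran from -0.29 for Serpinb9d to 0.074 for Serpinb6c. A shared probe set for 4 Serpinb9 paralogs (1418423_s_at) was dim as well and differed by -0.038. Among the 10 protein-coding genes flanking the cluster, 5 on each side, 8 were tested and 0 had an adjusted p under 0.05. Their differences ran from -0.089 for Bphl to 0.29 for Tubb2a, which had the 1 unadjusted p under 0.05 among them (0.0483).

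**Figure D2:**
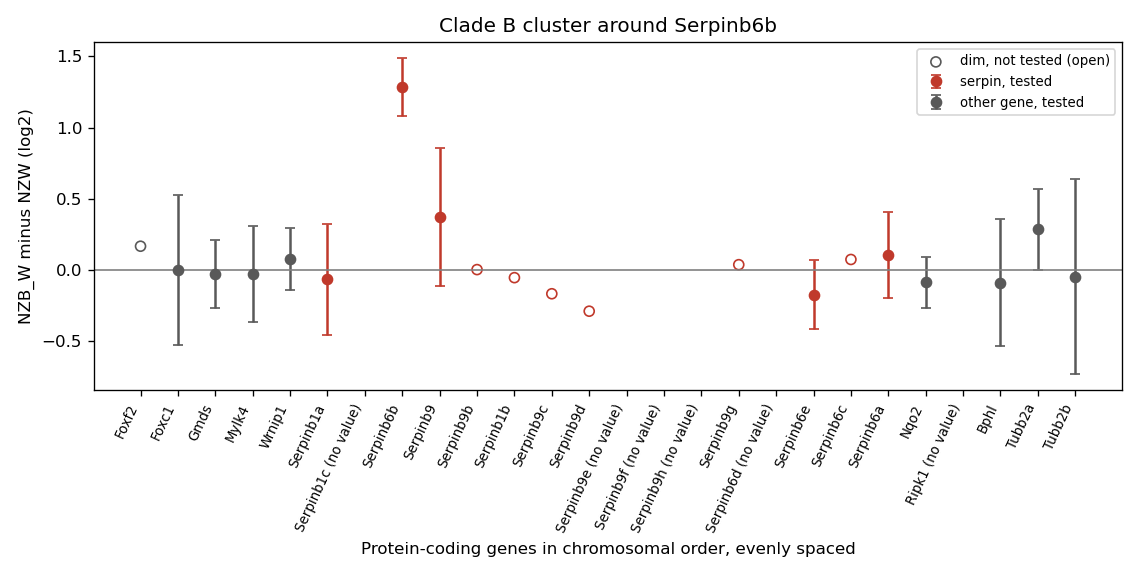
Log2 difference, NZB_W minus NZW, for the protein-coding genes around Serpinb6b in chromosomal order, evenly spaced along the horizontal axis. Filled points were tested and carry limma's 95% interval, open points were dim, and names without a point had no probe set of their own. Serpinb6b stands at 1.29, and the other tested genes lie between -0.17 and 0.37.

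Sequences upstream of Serpinb6b and of its bright paralogs Serpinb9 and Serpinb6a are shown because the measured differences of the 3 genes, 1.29, 0.37 and 0.11, ranged widely within 1 cluster. The upstream sequences used, from RefSeq for GRCm38.p6, covered 10 of the 12 bright serpins. Serpinb1a and Serping1 had none there, and Serpina11 and Serpinb6a had 2 start sites each. Each sequence holds the 250 bases before a start site, 5′ to 3′ on the gene's own strand. Capitals mark matches, on either strand, to the motifs searched. The first is chr13:32965011-32965260 on the plus strand, the second chr13:33004291-33004540 on the plus strand, and the third, for the start of Serpinb6a farthest upstream, chr13:34002795-34003044 on the minus strand.
Serpinb6b: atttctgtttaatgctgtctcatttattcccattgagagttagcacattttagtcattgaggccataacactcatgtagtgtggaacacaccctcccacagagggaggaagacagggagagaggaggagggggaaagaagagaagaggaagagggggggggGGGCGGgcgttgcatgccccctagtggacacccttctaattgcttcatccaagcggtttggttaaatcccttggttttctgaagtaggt
Serpinb9: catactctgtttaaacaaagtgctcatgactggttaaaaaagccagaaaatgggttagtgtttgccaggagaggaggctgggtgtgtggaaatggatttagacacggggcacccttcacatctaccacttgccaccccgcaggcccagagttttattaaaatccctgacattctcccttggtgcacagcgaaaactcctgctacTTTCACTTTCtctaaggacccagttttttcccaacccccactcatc
Serpinb6a: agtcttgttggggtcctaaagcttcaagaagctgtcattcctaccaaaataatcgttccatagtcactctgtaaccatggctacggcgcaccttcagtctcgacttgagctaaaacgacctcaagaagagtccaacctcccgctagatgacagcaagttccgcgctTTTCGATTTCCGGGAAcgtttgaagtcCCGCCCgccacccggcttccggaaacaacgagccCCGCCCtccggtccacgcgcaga

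The motifs were the interferon-stimulated response element (GAAA and GAAA with 2 bases between), the interferon gamma-activated sequence (TTCNNNGAA), the heat shock element (GAA, TTC and GAA in this order with 2 bases between each) and the GC box (GGGCGG). In 32851 upstream sequences of the same length in the RefSeq table, 2.98%, 7.02%, 0.466% and 32.7% held them. Serpinb6b held a GC box that begins 89 bases before the start and no match to the other 3. Serpinb9 held an interferon-stimulated response element 46 bases before its start. The printed Serpinb6a sequence held 1 such element at 84 bases, which overlaps an interferon gamma-activated sequence at 77 bases, and 2 GC boxes. The sequence before the other Serpinb6a start, chr13:33936084-33936333 on the minus strand, held 0 matches to all 4 motifs. Of the 12 sequences of bright serpins, 2 held the response element (Serpinb9 and Serpinb6a), 3 the gamma-activated sequence (both starts of Serpina11, which lie close together, and Serpinb6a), 3 a GC box and 0 the heat shock element. A match is a stretch of letters in the reference strain, not a measured binding site.

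Serpini1 encodes neuroserpin, an inhibitor of tissue plasminogen activator, and both of its bright probe sets separated the groups. The probe set that stood for the gene (1416702_at) read 6.87, 6.96 and 6.89 in the NZB_W hearts, against 6.28 and 6.65 in the NZW hearts. The 3 NZB_W hearts lay closer together than the 2 NZW hearts. The difference was 0.44 (SE 0.13, 95% interval 0.11 to 0.77) or 1.36-fold, with an unadjusted p of 0.0196 and a limma adjusted p of 0.853. The other bright probe set (1448443_at), in a fit over 22819 probe sets, read 6.13, 6.31 and 6.13 against 5.68 and 5.84, with a difference of 0.43 (SE 0.097). Its unadjusted p was 0.00842 and its limma adjusted p 0.728. A dim probe set (1443756_at), between 2.17 and 2.41, overlapped between groups. With NZW array 1 left out the Serpini1 difference was 0.26.

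Plat, tissue plasminogen activator and the target of neuroserpin, was lower in NZB_W in all 3 hearts. It read 7.22, 7.47 and 7.48 in the NZB_W hearts, against 7.91 and 7.66 in the NZW hearts, a difference of -0.39 (SE 0.13). Plaur, the receptor of urokinase, differed by 0.40 (SE 0.14), and its groups did not overlap. Both had a limma adjusted p of 0.859. Urokinase itself (Plau) was dim on all arrays. Of 12 genes of plasminogen activation, 6 were tested, 5 were higher and 1 lower with a median of 0.084, and 0 passed.

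Serpina3n, a secreted acute phase inhibitor that blocks granzyme B and leukocyte elastase, varied more between hearts than any other bright serpin. The NZB_W hearts read 6.52, 7.02 and 9.12, the NZW hearts 7.19 and 6.53. NZB_W array 3 stood far above every other array, and the other 4 arrays mixed between groups. The means were 7.55 ± 1.38 (SD, n = 3) and 6.86 ± 0.472 (SD, n = 2), a difference of 0.69 (SE 0.85, limma adjusted p = 0.89) with a 95% interval from -1.54 to 2.92. Without NZB_W array 3 the difference was -0.091, without NZB_W array 1 it was 1.21, and without NZW array 2 it was 0.36. The same heart was high in collagen transcripts and macrophage markers. Log2 summed levels of 14 collagen and collagen-folding genes were 14.3 on NZB_W array 3, 13.03 and 13.11 on the other NZB_W arrays, and 13.21 and 13.36 on the NZW arrays. Their part in the Serpina3n value was not tested.

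The rest of clade A was dim apart from Serpina11, at 5.35 to 5.50 on the 5 arrays, which differed by -0.072 (SE 0.066). The 12 dim clade A genes lay between 2.05 and 4.91 and included Serpina6 and Serpina7, the carriers of corticosteroid and thyroid hormone, and Serpina12, the adipokine vaspin. Serpina1b, which encodes an alpha-1 antitrypsin, was the dim serpin with the largest difference, and it is named after its values were seen. It read 3.91, 4.91 and 4.56 in the NZB_W hearts, against 3.72 and 3.62 in the NZW hearts, a difference of 0.79. A dimmer Serpina1b probe set (1418282_x_at) read 3.72, 4.34 and 4.19 against 3.13 and 3.05. Both probe sets are of a type that can bind paralogs, and the probe sets annotated to several Serpina1 genes differed by 0.055 and -0.016. With no filter on dim genes, the lowest adjusted p among the 28 dim serpins was 0.873. Of 6 hepatocyte markers, Alb, Fgb and Apoc3 were below the median on every array, whereas Ttr exceeded it on 5 arrays and Apoa1 and Ahsg on 4. The log2 summed level of the 6 was 7.06 to 7.42 in NZB_W and 7.05 to 7.66 in NZW.

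**Figure D3:**
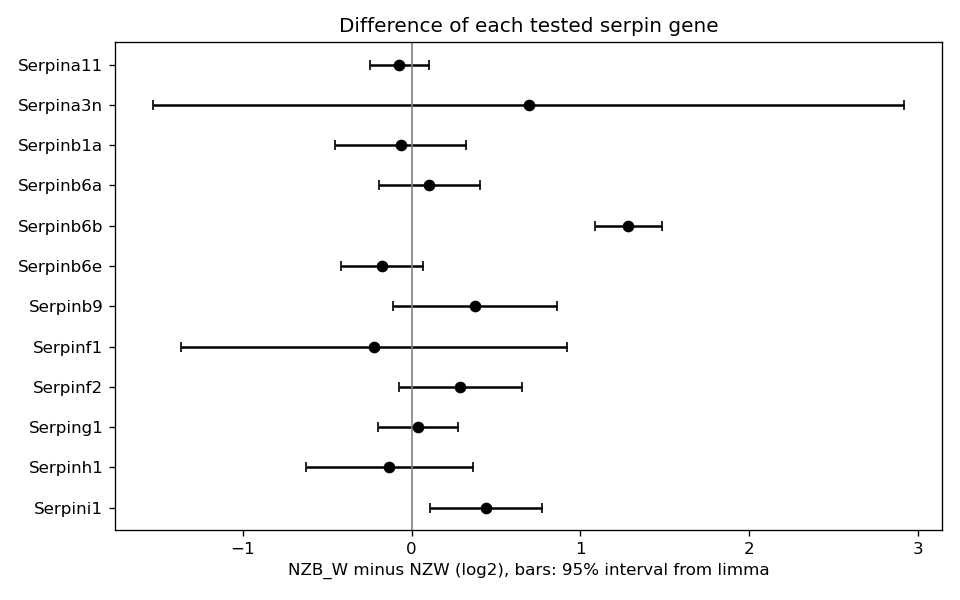
Log2 difference, NZB_W minus NZW (horizontal axis), for the 12 bright serpins, with limma's 95% interval as bars. The intervals of Serpinb6b (1.08 to 1.49) and Serpini1 (0.11 to 0.77) lie above 0 before adjustment for the number of genes, and the 10 others include 0.

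The bright plasma inhibitors of complement and fibrinolysis overlapped between the groups. Serping1, the C1 inhibitor that restrains the first complement component and the contact system, read 10.40, 10.41 and 10.52 in the NZB_W hearts, against 10.51 and 10.31 in the NZW hearts. The groups interleaved, and the difference of 0.036 (SE 0.09) had a 95% interval from -0.20 to 0.27. Serpinf2, the alpha-2-antiplasmin that inactivates plasmin, lay close to the array median and read 5.20, 5.21 and 4.92 against 4.69 and 4.96. NZB_W array 3 fell between the 2 NZW arrays, and the difference was 0.29 (SE 0.14, limma adjusted p = 0.859). It was 0.15 without NZW array 1. Among 12 clotting and complement proteases that such inhibitors act on, 3 were bright and 0 passed. The list had a median of 0.079, with C1ra, a subunit of complement C1, at -0.089 (SE 0.18) and Masp1 of the lectin pathway at 0.093 (SE 0.21). The clotting genes F2, F10 and F12 were dim on all arrays.

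Serpinf1 encodes the antiangiogenic pigment epithelium-derived factor and inhibits no protease. It read 7.76, 8.21 and 9.11 in the NZB_W hearts, against 8.81 and 8.36 in the NZW hearts, so the NZB_W hearts spanned both NZW values. The difference was -0.22 (SE 0.44). Leaving out NZB_W array 3 gave -0.60, and leaving out NZB_W array 1 gave 0.075. Without NZW array 1 it was 0.00021, and without NZW array 2 it was -0.45. Its second probe set (1453724_a_at) varied less among NZB_W hearts, at 7.73, 7.77 and 7.84, and differed by -0.14 (SE 0.23).

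Serpinh1, the collagen chaperone Hsp47 of the endoplasmic reticulum, gave different values on its 2 probe sets. The one that stood for the gene (1450843_a_at) read 9.57, 9.78 and 9.998 in the NZB_W hearts, against 10.13 and 9.70 in the NZW hearts, with overlap, and differed by -0.13 (SE 0.19). The other (1456733_x_at) read 9.09, 9.83 and 9.23 against 10.05 and 9.96, without overlap, and differed by -0.62 (SE 0.24, limma adjusted p = 0.883 over probe sets). Its collagen clients were highest in 1 heart. Col1a1 read 6.79, 7.48 and 9.69 in the NZB_W hearts, against 7.67 and 7.50 in the NZW hearts, and Col3a1 10.26, 10.53 and 12.41 against 10.85 and 11.11. Of 14 collagen and collagen-folding genes tested, 10 were higher and 4 lower, with a median of 0.11, and 0 passed. On NZB_W array 3, Col1a1 had its highest value of the 5, whereas neither Serpinh1 probe set had its highest value there.

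The proteases of leukocytes and mast cells, targets of clades A and B, were mostly dim. Of 12 on the list, 4 were tested, all 4 were lower on average with a median of -0.26, and 0 passed. Elane (neutrophil elastase), Ctsg (cathepsin G) and Gzmb (granzyme B) were below the median on every array, at 4.01 to 4.31, 3.11 to 3.51 and 3.82 to 4.43. Their differences were 0.096, -0.013 and 0.36. Elane and Ctsg overlapped between groups, whereas Gzmb separated them by 0.18, as 14.1% of all genes with no filter separated in either direction. The mast cell protease Mcpt4, also too dim to test, differed by -0.30, so the untested genes named here went in both directions. Of the cell markers checked, 3 of 6 for neutrophils and 1 of 7 for T and NK cells were bright enough to test, and Elane, Mpo and Cxcr2 exceeded the median on no array. Log2 summed levels for T and NK cells were 7.36 to 7.52 in NZB_W and 7.23 to 7.28 in NZW. Their tested marker, Cd3e, differed by -0.012, and the dim ones, Gzmb among them, were higher on average. For neutrophils the sums overlapped, at 6.72 to 7.76 and 7.17 to 7.34. Cma1, mast cell chymase, read 5.27, 5.12 and 5.09 in the NZB_W hearts, against 5.95 and 5.27 in the NZW hearts, a difference of -0.45 (SE 0.22). Mast cell markers, a list that includes Cma1, had log2 summed levels of 7.13 to 7.29 in NZB_W and 7.42 to 7.75 in NZW. All 3 of 3 tested markers were lower, and Cma1 is 1 of these 3, so the list is not independent of it. Among the mast cell markers too dim to test, Kit went the other way, at 0.33, with its highest value on NZB_W array 3 (4.90). Mcpt4 and Fcer1a differed by -0.30 and -0.28. The part of mast cell content in the chymase value was not tested.

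The lysosomal proteases and caspases were all bright, and 8 of 12 were higher, 4 lower and 0 passed, with a median of 0.15. Ctss, cathepsin S of antigen-presenting cells, read 9.996, 9.56 and 10.97 in the NZB_W hearts, against 9.35 and 8.87 in the NZW hearts, a difference of 1.06 (SE 0.46, limma adjusted p = 0.859). It was highest on NZB_W array 3, as was the log2 summed level of the macrophage markers, at 12.55 there, 11.72 and 11.77 on the other NZB_W arrays, and 11.60 and 11.15 on the NZW arrays. Their part in the Ctss value was not tested. Ctsb and Ctsl differed by -0.038 (SE 0.12) and 0.0064 (SE 0.072), Ctsk by -0.051 (SE 0.26) and Casp1 by 0.099 (SE 0.20). Among 10 cofactors and clearance receptors, 8 were tested, 4 higher and 4 lower with a median of 0.033, and 0 passed. The clearance receptor Lrp1 differed by 0.078 (SE 0.31), its relative Vldlr by -0.17 (SE 0.12), vitronectin (Vtn) by -0.077 (SE 0.23) and thrombomodulin (Thbd) by -0.037 (SE 0.084). Of 11 tissue kallikreins measured, 2 were bright, both higher with a median of 0.098, and 0 passed.

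**Figure D4:**
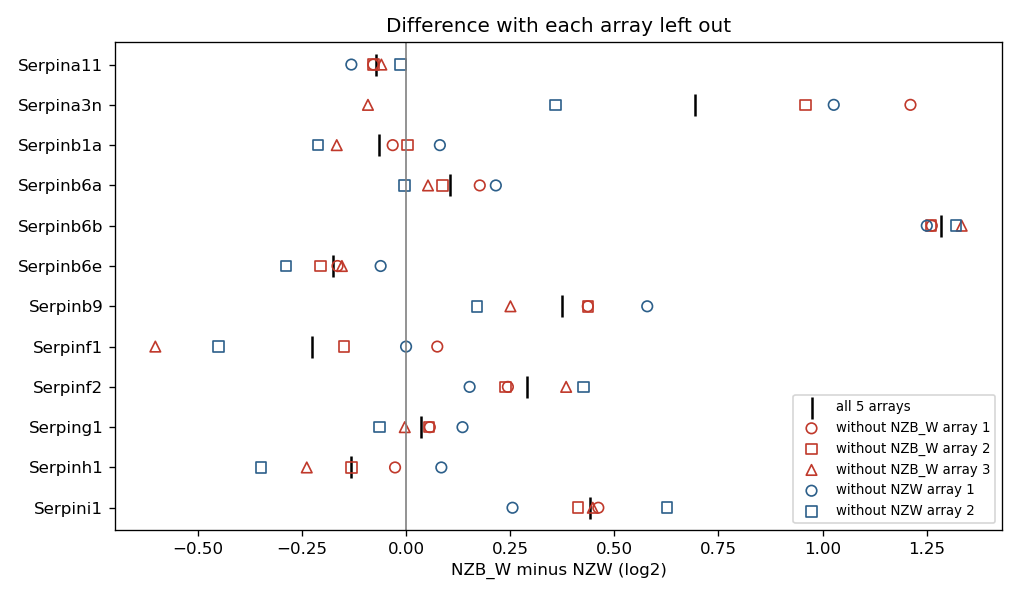
Log2 difference, NZB_W minus NZW (horizontal axis), of each bright serpin with all 5 arrays (black bar) and with each array left out (open symbols, red for NZB_W and blue for NZW). Serpinb6b stays between 1.25 and 1.33, whereas Serpina3n runs from -0.091 to 1.21 and changes sign without NZB_W array 3.

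Among the 28 dim serpins, 26 differed by less than 0.25 in size, and their levels lay between 2.05 and 4.91. The groups did not overlap in 3 of them, Serpina1b, Serpina1f and Serpinb9d, beside 14.1% of all 18193 genes with no filter. Serpina1f read 2.98 on all 3 NZB_W arrays and 3.08 and 3.01 on the NZW arrays, and Serpinb9d 3.20, 3.20 and 2.92 against 3.46 and 3.33. Both are named after their values were seen. Serpini2 had the same value, 2.93, on all 5 arrays, and 24 of the 40 serpins had the same value on at least 2 arrays, as did 57.8% of all genes.

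Serpinc1, antithrombin, and Serpind1, heparin cofactor II, are given here as the only members of their clades, outside the rule for named genes and after their values were seen. Serpinc1 read 3.31, 2.96 and 3.20 in the NZB_W hearts, against 2.93 and 2.99 in the NZW hearts, a difference of 0.20 with overlap. Serpind1 read 4.32, 4.05 and 4.41 against 4.05 and 4.13, a difference of 0.17 in which the lowest NZB_W heart matched the lower NZW heart.

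The remaining dim clade A members were Serpina5, the protein C inhibitor, Serpina10, the inhibitor of clotting factor X that depends on protein Z, Serpina1c, Serpina3a, Serpina3i, Serpina9 and the pseudogene Serpina4-ps1. Differences of all 12 dim clade A genes ran from -0.21 to 0.79. The dim clade B members outside the chromosome 13 cluster were Serpinb2, plasminogen activator inhibitor type 2, Serpinb5, the epithelial protein maspin, Serpinb3a, Serpinb7, Serpinb8, Serpinb11 and Serpinb12. Differences of all 13 dim clade B genes ran from -0.29 to 0.18, at levels between 2.22 and 4.44. A level below the array median does not show that a transcript is absent.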

How the data were processed

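Hearts of 3 NZB_W and 2 NZW mice gave 1 array each. Total RNA was extracted with Trizol and 6 µg of it was labelled, per the labels' protocols. The deposited values are log2 expression per probe set. RMA, GCRMA and Partek appear in the submitters' processing notes. Their roles and versions are not given in the sources used here, and the background correction, which sets how compressed low values are, is therefore unknown.

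Of 45101 probe sets, 64 were controls and left out, and of the others 34945 had 1 gene symbol, 932 several and 9160 none, by GEO's platform annotation. Entrez identifiers matched 34741 of the named probe sets to RefSeq (GRCm38.p6), and no symbol changed. A gene was tested when its probe set exceeded the array median on at least 2 arrays (11902 of 18193 genes). Groups were compared with lmFit and eBayes of limma 3.58.1 in R 4.3.3 with no covariate, and p-values were adjusted by Benjamini-Hochberg over every gene tested (threshold 0.05). The fit was tested on simulated data. By rule, values were given for the tested serpins, the clade B neighbours of Serpinb6b, genes marked in pathway lists, and dim serpins differing by over 1 or with groups over 0.5 apart. No dim serpin met this, and values of those given (Serpina1b, Serpina1f, Serpinb9d, Serpinc1, Serpind1, Serpini2) were chosen after they were seen. The members and lists were chosen with earlier results of these data known. Alternatives varied normalization, filter, probe sets, test and arrays used. The number of arrays limits the precision.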

Additional observations from a re-analysis of the deposited data

How the results depend on the processing

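Serpinb6b was higher in NZB_W in all 15 settings tried (1.25 to 1.37). Its limma adjusted p ran from 0.0263 to 0.611 in those that kept both NZW arrays. It passed with the mean of all probe sets (1.29, adjusted p = 0.0451) and with array weights (1.32, adjusted p = 0.0263), which made 1 serpin called in each. Its own values were the same with the mean of all probe sets, since it has 1 probe set. Genes called numbered 1 in the main comparison, 5 with the mean of all probe sets, 2 without _s_at, _x_at and _a_at probe sets, 8 with array weights, and 0 to 1 with any array left out. Dropping NZW arrays left 1, assumed to vary like the others. Without any filter, 19 of 40 serpins were higher and 6 did not overlap, beside 14.1% of all 18193 genes that did not overlap. With any array left out, 4 to 7 serpins did not overlap, beside 24.6% to 29.3% of all genes tested without 1 NZB_W array, 47.7% without NZW array 1 and 38.8% without NZW array 2. Without _s_at, _x_at and _a_at probe sets the median difference of the 9 serpins tested was 0.29. With single arrays left out that median ran from -0.031 to 0.14.

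The labels give both groups replicate numbers 1 and 2. Deviations of same-numbered arrays from their group means correlated at -0.258 and 0.102. With 2 NZW arrays, their deviations mirror each other, so these values cannot decide whether same-numbered arrays were paired. A replicate block, which drops NZB_W array 3, called 0 genes and gave 1.33 for Serpinb6b (adjusted p = 0.553), -0.091 for Serpina3n and -0.0029 for Serping1. Signs turned without NZB_W array 3 for Serpina3n (-0.091) and Serping1 (-0.0029), without NZB_W array 1 for Serpinf1 (0.075), and without NZB_W array 2 for Serpinb1a (0.0041). They turned without NZW array 1 for Serpinf1 (0.00021), Serpinb1a (0.081) and Serpinh1 (0.085), and without NZW array 2 for Serping1 (-0.063) and Serpinb6a (-0.0038). Without NZB_W array 3 and NZW array 2, the arrays with the largest actin 5' to 3' difference, a setting chosen after seeing the data, 0 genes were called, 4 serpins were higher, 10 did not overlap (beside 55.4% of all genes tested), and the median was -0.080. There Serpina3n differed by -0.43, Serpinf1 by -0.83, Serpinh1 by -0.45, Serpinb1a by -0.31, Serping1 by -0.10 and Serpinb6a by -0.057. The opposite extremes with single arrays left out were 1.21 for Serpina3n, 0.22 for Serpinb6a and 0.14 for Serping1. The causes were not tested.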
